A study of Mus musculus with 8 samples.

Results

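The classical cadherins, the delta protocadherins and the giant cadherins of the Celsr, Fat and Dachsous families were examined in Math1-lineage cells of the mouse cochlear nucleus. The members were the 34 rows of the count table, of 39017 in all, whose Ensembl identifier maps to one of 34 listed symbols of the non-clustered cadherin superfamily. They comprised 4 type I cadherins, 11 type II cadherins, T-cadherin, 10 delta protocadherins and 8 genes of the Celsr, Fat and Dachsous families.

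The study compared mutant with wild type embryos on a C57BL/6 background at stage E18.5, with 4 libraries in each group, to ask how the transcription factors Hoxa2 and Hoxb2 act in part of the nucleus. Both groups carried Math1::Cre and the Rosa tdTomato reporter, so that cells with a history of Math1 (Atoh1) expression fluoresced and could be sorted from the dissected nucleus, the first brainstem relay for hearing. The mutant libraries carried conditional Hoxa2 and Hoxb2 alleles besides. Titles give the mutant genotype as Hoxa2+/fl; Hoxb2fl/fl, whereas the design text gives Hoxa2fl/fl; Hoxb2fl/fl, so the number of Hoxa2 alleles targeted is uncertain here. Each sample pooled 3 littermates from a mother of its own and held 30000 sorted cells. Cre acts only where the Math1 promoter has been active, and a sorted population of this kind mixes cell types, so that fewer cells of a type and less RNA per cell cannot be told apart.

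Cadherins are calcium-dependent adhesion proteins whose extracellular repeats bind the same or a related cadherin on a neighbouring cell. Type I and type II cadherins hold catenins on the inside of the membrane and through them actin, and neurons that express matching cadherins tend to sort together and to form common nuclei, tracts and synapses in the hindbrain. Delta protocadherins adhere weakly and signal through short cytoplasmic motifs. Celsr proteins are receptors of the planar polarity pathway that guide axons and migrating neurons, and Fat and Dachsous proteins bind each other across cell borders.

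Total counts ranged from 26299105 to 51118195 in mutant and from 24789043 to 40050010 in wild type libraries. Libraries are named by the numbers in the table's headings, mutant 1 to 4 and wild type 5 to 8. Hoxb2 fell to 5.02 ± 1.49 CPM in mutant libraries, against 40.1 ± 4.41 CPM in wild type libraries (SD, n = 4 each, edgeR adjusted p = 3.76e-05), while Hoxa2, at 26.7 ± 15.7 CPM in mutant and 43.2 ± 10.99 CPM in wild type libraries (SD, n = 4 each), did not pass (edgeR adjusted p = 0.506). CPM is here the read count scaled to a common library total by the trimmed mean of M values (TMM). Each of the 10 listed Atoh1-lineage and glutamatergic markers was counted in every library, with Atoh1 itself at 28.5 to 134 CPM in mutant and 57.5 to 154 CPM in wild type libraries. None of the 10 passed the edgeR test, but 8 had negative log2 fold changes, with a median of -0.28. The smallest p-values among them were those of Barhl2, at -0.67 with every mutant library below every wild type library (edgeR adjusted p = 0.123), and Slc17a6, at -0.37 (edgeR adjusted p = 0.315). Their part in the cadherin values was not tested. The summed level of 4 Y-linked genes was 310, 122, 0.0971 and 69.9 CPM in mutant 1 to 4, against 322, 238, 65.1 and 0.430 CPM in wild type 5 to 8, so libraries of the same group differed in Y-linked expression. Mutant 1, wild type 5 and wild type 6 were the 3 libraries above 200 CPM, and they also lay together at one end of the first principal component of all genes. The summed level of 9 neuron markers was likewise lowest in these 3, at 3576 CPM in mutant 1 with the other mutants at 4670 to 5101 CPM, and at 3509 and 3539 CPM in wild type 5 and 6 with the other wild types at 4769 and 4671 CPM. Stmn2 and Map2 had the largest levels in that sum. Mutant 1 was the lowest mutant in 6 of the 9 markers, against 30.95% of all genes tested, but not in Elavl3, Elavl4 or Rbfox3. The microglial gene C1qa fell to 0.203 CPM in mutant, against 2.36 CPM in wild type libraries (edgeR adjusted p = 0.0115). It was the only call among 6 tested of 8 microglia markers. Of the 6 tested 5 had negative log2 fold changes, with a median of -1.65 over the 6. P2ry12 was at -2.03 without overlap between the groups (edgeR adjusted p = 0.0900). The summed level of the 8 was 11.1 to 17.6 CPM in mutant and 14.9 to 23.4 CPM in wild type libraries. Csf1r alone was at 9.81 to 15.2 CPM in mutant and 10.1 to 11.6 CPM in wild type libraries, with a log2 fold change of 0.07. No microglial, inhibitory neuron, glial or meningeal marker listed was at 0 in all libraries.

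The cadherin superfamily was led by N-cadherin and several of the giant cadherins in both groups. Levels were compared between genes as TMM-scaled CPM per kilobase of the deposited gene width. Cdh2, which encodes N-cadherin, the main cadherin of neural tissue, was the highest member, at 43.0 ± 4.25 CPM per kb in mutant and 43.8 ± 2.81 CPM per kb in wild type libraries (SD, n = 4 each). In wild type libraries Celsr3, Celsr2, Fat1, Fat2, Dchs1, Pcdh9, Fat4, Celsr1, Cdh4 and Cdh11 followed in that order of mean level per kb. Only 3 neighbouring pairs in the whole order had wild type libraries that did not overlap: Cdh2 above Celsr3, Celsr3 above Celsr2 and Celsr1 above Cdh4. The epithelial cadherins stood at the bottom, Cdh3 (P-cadherin) at 0.0837 ± 0.0505 CPM per kb in mutant and 0.103 ± 0.0521 CPM per kb in wild type libraries, and Cdh1 (E-cadherin) at 0.0576 ± 0.0276 CPM per kb in mutant and 0.0933 ± 0.0869 CPM per kb in wild type libraries (SD, n = 4 each).

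**Figure D1:**
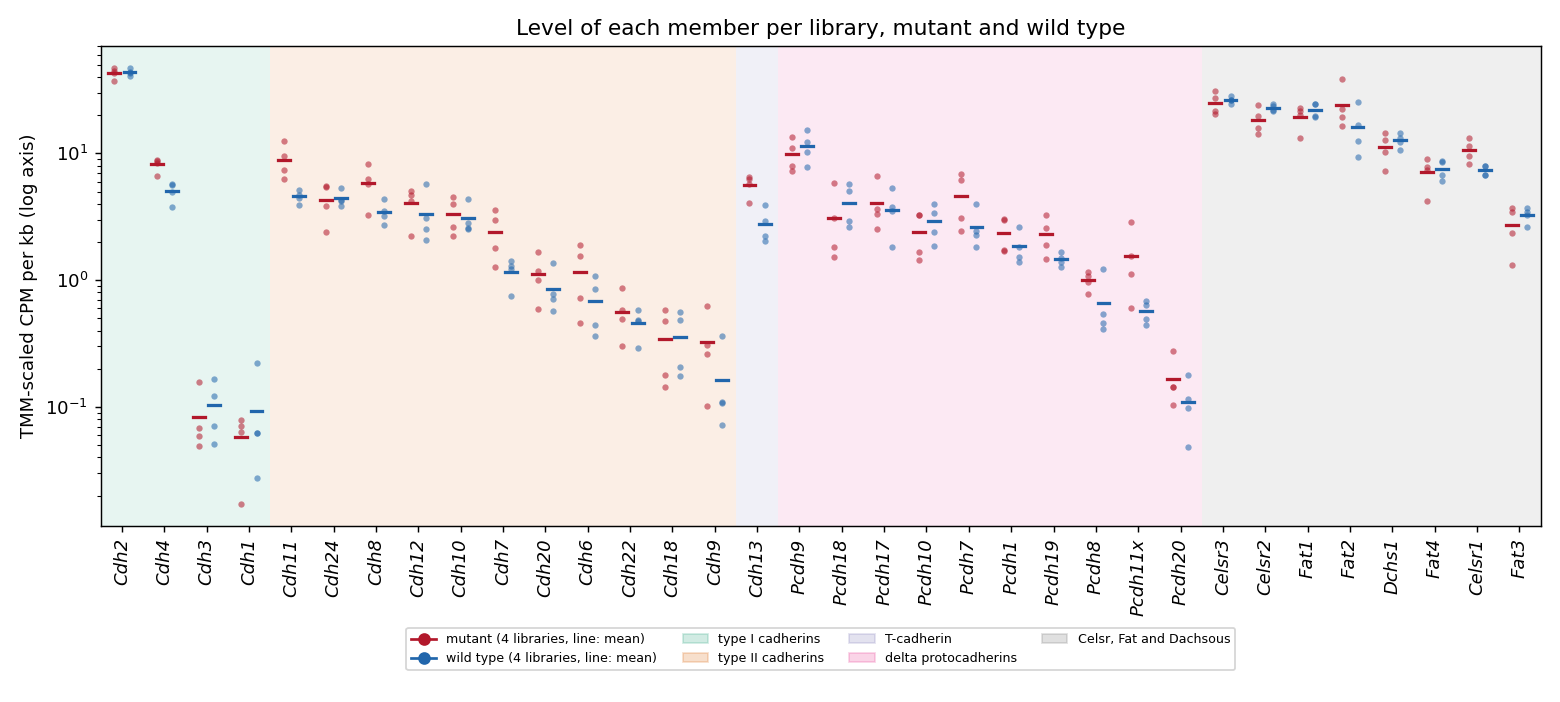
Level of each of the 34 members in each library, as TMM-scaled CPM per kb on a log axis, with mutant left of wild type, points for libraries and lines for group means (n = 4 each). Cdh2, Celsr3, Celsr2, Fat1, Fat2 and Dchs1 lie highest in both groups, and Cdh1, Cdh3 and Pcdh20 lie lowest. Fat3 lies in the middle, with means of 2.71 CPM per kb in mutant and 3.26 CPM per kb in wild type libraries.

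The 8 Celsr, Fat and Dachsous genes made up 49.5 ± 5.39% of the summed level per kb of all members in mutant and 53.2 ± 1.43% in wild type libraries (SD, n = 4 each). The 11 type II cadherins made up 13.5 ± 2.44% in mutant and 10.2 ± 1.19% in wild type libraries, and T-cadherin 2.38 ± 0.50% in mutant and 1.24 ± 0.28% in wild type libraries (SD, n = 4 each). Type I cadherins held 21.6 ± 2.06% in mutant and 22.1 ± 1.07% in wild type libraries, nearly all of it Cdh2 and Cdh4. Delta protocadherins held 13.04 ± 2.73% in mutant and 13.2 ± 0.90% in wild type libraries. These shares are descriptions without a test, and they change with the division by length.

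No member passed the test between mutant and wild type libraries. All 34 members passed the filter on low counts, and 0 of them had an edgeR quasi-likelihood p below 0.05 after Benjamini-Hochberg adjustment over the 19494 genes tested, of which 70 did (0.359%). At an unadjusted edgeR p below 0.05, 9 members were higher in mutant libraries, which is 26.5% of the members and is to be read against 7.22% of all genes tested, and 0 were lower, against 5.29%. In 4 members, Cdh4, Cdh11, Cdh13 and Celsr1, every mutant library lay above every wild type library, against 3.23% of all genes tested, and in 0 members did every mutant library lie below, against 2.94%. The log2 fold change was above 0 in 20 of the 34 members, against 48.4% of all genes tested, and its median was 0.29 over the members and -0.01 over all genes tested. The other tools differed on the count of 0: DESeq2 called 6 members (Cdh4, Cdh7, Cdh11, Cdh13, Celsr1 and Pcdh11x), limma-voom 0, and limma-voom with sample quality weights 2 (Cdh11 and Cdh13), all higher in mutant libraries. Over all 19494 genes tested, these tools called 311, 32 and 130 genes higher in mutant libraries, in the same order.

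The count also changed with the libraries used. Without mutant 1, edgeR called 7 members higher in mutant libraries (Cdh4, Cdh7, Cdh8, Cdh11, Cdh13, Pcdh11x and Pcdh19), with 1.67% of all genes tested called higher in that fit. Without wild type 7 it called Cdh13, with 37 of 20064 genes tested called higher in that fit. With any other single library left out it called 0. Mutant 1 was the lowest mutant library in 18 of the 34 members and in 9 of the 11 type II cadherins, against 30.95% of all genes tested. With mutant 1 and wild types 5 and 6 all left out, 3 members were called higher (Cdh8, Cdh11 and Cdh13). In that fit 95 of the 20153 genes tested were called higher. With the Y-linked level as a covariate 0 members were called by edgeR, and the adjusted p was 0.0820 for Cdh4, 0.0846 for Cdh11, 0.0868 for Cdh13 and 0.124 for Celsr1. In these 4 genes the groups did not overlap. Mutant 1 was therefore bound to lie above wild types 5 and 6, and mutants 2 to 4 above wild types 7 and 8. In Cdh7, Cdh8, Pcdh11x and Pcdh19 only the second of these orders held. The part of neuron content in these values was not tested.

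**Figure D2:**
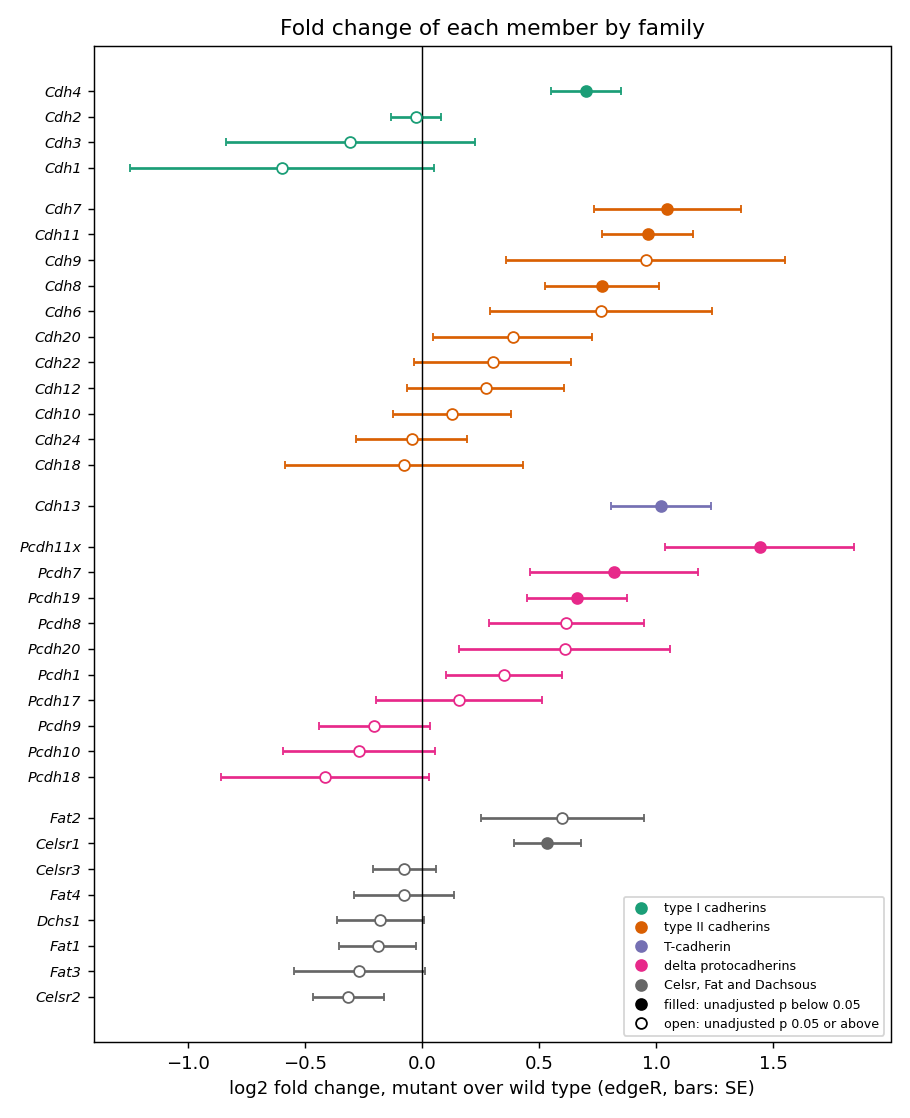
Log2 fold change of mutant over wild type for each member, by family, from edgeR over 4 libraries per group, with bars of 1 standard error. Filled points mark the 9 members with an unadjusted p below 0.05, all on the side of higher levels in mutant libraries, and no member passed after adjustment over all genes.

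Among the type I cadherins Cdh4 differed from the other members. Cdh4 (ENSMUSG00000000305, chromosome 2, 179442431 to 179899373, mm10) encodes R-cadherin, which binds itself and N-cadherin. It was at 63.2, 64.3, 60.9 and 47.9 CPM in mutant 1 to 4, against 41.7, 27.2, 35.9 and 40.4 CPM in wild type 5 to 8. All mutant libraries were above all wild type libraries, and mutant 1 was among the high ones. Its log2 fold change was 0.70 (SE 0.149, 95% interval 0.38 to 1.02, edgeR adjusted p = 0.0835). Without mutant 1 it was 0.67 and passed narrowly (edgeR adjusted p = 0.0491). Exact two-sided permutation of libraries gave p = 0.0286, the smallest that 4 against 4 allow. Groups without overlap must give that value.

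N-cadherin did not differ beyond the spread of the libraries. Cdh2 (ENSMUSG00000024304, chromosome 18, 16588877 to 16809246) was at 349, 377, 298 and 362 CPM in mutant 1 to 4, against 357, 328, 382 and 345 CPM in wild type 5 to 8. The groups overlapped, and mutant 3 was the lowest of all 8 libraries. A log2 fold change of -0.03 was fitted, with a 95% interval from -0.26 to 0.20 that bounds a difference in either direction (edgeR adjusted p = 0.937, SE 0.106).

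The epithelial pair was counted in few reads. Cdh1 had 11, 2, 15 and 12 reads in mutant 1 to 4, against 11, 26, 10 and 5 reads in wild type 5 to 8, and in mutant 2 the exact 95% interval for its share of the total ran from 0.0092 to 0.275 CPM before scaling. Its log2 fold change was -0.60 (SE 0.647). Cdh3 had 6, 16, 12 and 10 reads in mutant 1 to 4, against 11, 17, 17 and 8 reads in wild type 5 to 8, and its log2 fold change was -0.31 (SE 0.531). Both genes overlapped between the groups. Of the single libraries left out, only wild type 6 turned their signs, to 0.22 for Cdh1 and 0.0034 for Cdh3.

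The type II cadherins, which differ from type I in how their outermost repeat docks and are expressed in neuronal subsets, mostly had positive fold changes, of which none passed the test. Of the 11 members 9 had a positive log2 fold change, 3 were higher at an unadjusted edgeR p below 0.05, none was lower at that level, and the median was 0.39. Over all genes tested 48.4% had a positive log2 fold change, 7.22% were higher at that level and 5.29% were lower. Of the type II members Cdh11, Cdh7 and Cdh8 had the smallest p-values.

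Cdh11 (ENSMUSG00000031673, chromosome 8, 102632095 to 102785642) encodes OB-cadherin, first described in osteoblasts and present in mesenchyme and brain. It was at 26.6, 52.7, 31.2 and 40.2 CPM in mutant 1 to 4, against 16.7, 21.8, 18.8 and 19.9 CPM in wild type 5 to 8. Every mutant library was above every wild type library, and mutants 2 and 4 were the highest. The log2 fold change of 0.96 (SE 0.193, 95% interval 0.54 to 1.38) came closest to passing of all members, with an edgeR adjusted p of 0.0657. It was 1.10 without mutant 1 (edgeR adjusted p = 0.0085) and 0.76 without mutant 2 (edgeR adjusted p = 0.150). The two-sided p by exact permutation of libraries was 0.0286, which the lack of overlap fixes. The summed level of 10 meningeal fibroblast and mural markers was 7.17 to 16.0 CPM in mutant and 7.92 to 23.6 CPM in wild type libraries, and all 7 of those markers that were tested had negative log2 fold changes. The part of such cells in the Cdh11 values was not tested.

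Cdh7 (ENSMUSG00000026312, chromosome 1, 109982431 to 110140157), described in motor neuron groups of the chick, was at 10.9, 30.5, 15.5 and 25.8 CPM in mutant 1 to 4, against 6.48, 11.02, 12.1 and 10.5 CPM in wild type 5 to 8. Mutants 2 and 4 were highest, mutant 3 was also above the wild type range, and mutant 1 lay within it. This gave a log2 fold change of 1.05 (edgeR adjusted p = 0.234, SE 0.313), with 1.26 when mutant 1 was left out (edgeR adjusted p = 0.0238) and 0.80 when mutant 2 was (edgeR adjusted p = 0.420).

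Cdh8 (ENSMUSG00000036510, chromosome 8, 99024471 to 99416471), known from synapses of cold-sensing circuits in the mouse, was at 25.5, 63.5, 44.6 and 48.6 CPM in mutant 1 to 4, against 24.8, 34.03, 27.0 and 21.2 CPM in wild type 5 to 8. Mutants 2, 3 and 4 lay above all wild type libraries, and mutant 1 lay among them. Its fitted log2 fold change was 0.77 (edgeR adjusted p = 0.255, SE 0.244). It became 0.97 without mutant 1 (edgeR adjusted p = 0.0138), 1.12 with wild types 5 and 6 left out too (edgeR adjusted p = 0.0235), and 0.57 without mutant 2 (edgeR adjusted p = 0.444).

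Cdh24, in wild type libraries the second highest type II cadherin per kb after Cdh11, was at 14.8, 10.5, 6.53 and 15.0 CPM in mutant 1 to 4, against 11.8, 14.4, 11.6 and 10.6 CPM in wild type 5 to 8. Its groups overlapped, with mutant 3 the lowest of all, and the log2 fold change was -0.05 (SE 0.237). The remaining type II members had overlapping groups throughout. Cdh10 averaged 33.7 ± 11.2 CPM in mutant and 30.9 ± 8.96 CPM in wild type libraries, and Cdh12 averaged 22.8 ± 7.01 CPM in mutant and 18.9 ± 9.16 CPM in wild type libraries (SD, n = 4 each). The other 5 were rare. Cdh20 averaged 4.48 ± 1.81 CPM in mutant and 3.43 ± 1.39 CPM in wild type libraries, and Cdh6 3.05 ± 1.79 CPM in mutant and 1.801 ± 0.894 CPM in wild type libraries (SD, n = 4 each). Cdh22 averaged 2.08 ± 0.874 CPM in mutant and 1.70 ± 0.445 CPM in wild type libraries, and Cdh18 1.57 ± 0.983 CPM in mutant and 1.63 ± 0.889 CPM in wild type libraries (SD, n = 4 each). Cdh9, which in mouse hippocampus helps to build mossy fibre synapses, averaged 1.04 ± 0.705 CPM in mutant and 0.522 ± 0.431 CPM in wild type libraries (SD, n = 4 each). Cdh6 and Cdh9 had log2 fold changes of 0.76 (SE 0.474) and 0.96 (SE 0.595), of a size near those of Cdh8 and Cdh11 but with larger errors (edgeR adjusted p = 0.528 for both).

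T-cadherin was near Cdh11 in the size of its difference. Cdh13 (ENSMUSG00000031841, chromosome 8, 118283733 to 119324921) encodes a cadherin with a lipid anchor in place of a membrane-spanning and cytoplasmic part, so that it binds no catenin. It was at 45.4, 69.7, 63.9 and 72.8 CPM in mutant 1 to 4, against 24.8, 22.6, 43.8 and 32.8 CPM in wild type 5 to 8. The groups did not overlap, although mutant 1 and wild type 7 came close to each other. T-cadherin had a log2 fold change of 1.02 (SE 0.213, 95% interval 0.55 to 1.49, edgeR adjusted p = 0.0847). It passed with mutant 1 left out, at 1.15 (edgeR adjusted p = 0.0132), and with wild type 7 left out, at 1.24 (edgeR adjusted p = 0.0217). The two-sided p by exact permutation of libraries was 0.0286, which the lack of overlap fixes.

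**Figure D3:**
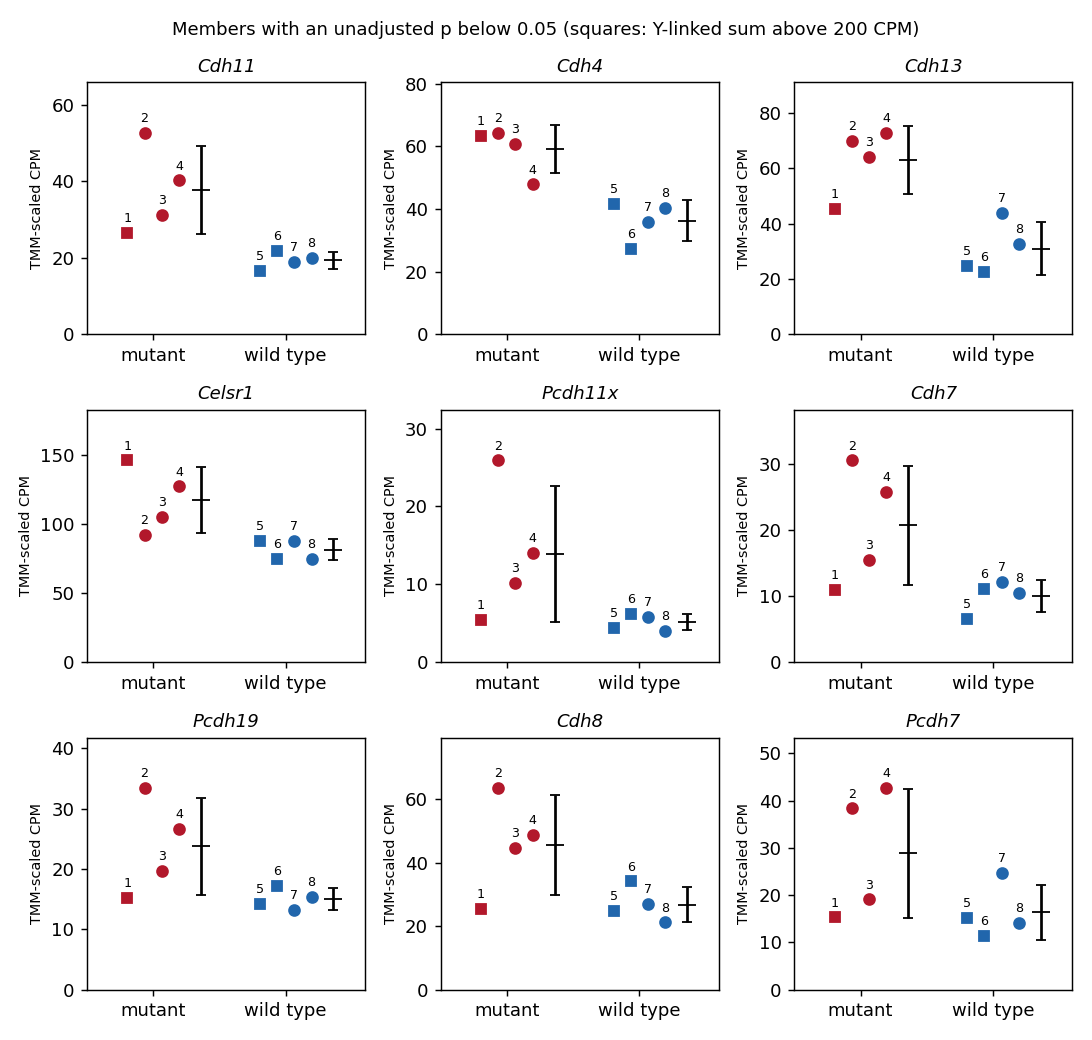
TMM-scaled CPM in each library for the 9 members with an unadjusted edgeR p below 0.05, mutant left and wild type right, with library numbers beside the points and bars of mean ± SD (n = 4 each). Squares mark mutant 1, wild type 5 and wild type 6, whose Y-linked sum was above 200 CPM, and mutant 1 is the lowest mutant in 7 of the 9 panels.

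Delta protocadherins split within the family. Of the 10 members 7 had a positive log2 fold change, 3 were higher at an unadjusted edgeR p below 0.05 and none was lower, with a median of 0.48. The shares over all genes tested were 48.4%, 7.22% and 5.29% in the same order. The delta-1 members, whose cytoplasmic part holds a binding motif for protein phosphatase 1, held the largest value. Pcdh11x (ENSMUSG00000034755, chromosome X, 120290259 to 120910619) was at 5.43, 25.9, 10.2 and 14.0 CPM in mutant 1 to 4, against 4.42, 6.23, 5.78 and 4.02 CPM in wild type 5 to 8. Mutants 2 to 4 were above every wild type library and mutant 1 was within their range. The log2 fold change of 1.44 (edgeR adjusted p = 0.210, SE 0.404) was the largest of the 34 members. It was 1.71 without mutant 1 (edgeR adjusted p = 0.0128) but 0.96 without mutant 2, the highest library (edgeR adjusted p = 0.338), which is below the 0.97 of Cdh13 in that fit. Pcdh7 (ENSMUSG00000029108, chromosome 5, 57717967 to 58133230) was at 15.3, 38.4, 19.1 and 42.7 CPM in mutant 1 to 4, against 15.2, 11.4, 24.6 and 14.1 CPM in wild type 5 to 8. Mutants 2 and 4 were high and the other mutants lay within the wild type range, with a log2 fold change of 0.82 (edgeR adjusted p = 0.392, SE 0.358).

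The other delta-1 genes, Pcdh9 and Pcdh1, had an unadjusted edgeR p of 0.05 or above. Pcdh9, per kb the highest protocadherin examined, was at 26.9, 50.5, 29.4 and 40.9 CPM in mutant 1 to 4, against 38.0, 28.9, 57.3 and 45.6 CPM in wild type 5 to 8. Pcdh1 was at 14.5, 25.1, 14.6 and 25.5 CPM in mutant 1 to 4, against 12.9, 11.7, 22.2 and 15.5 CPM in wild type 5 to 8. Both overlapped between the groups, although in Pcdh1, as in Pcdh7, mutants 2 and 4 were above every wild type library. The log2 fold change was -0.20 (SE 0.237) for Pcdh9 and 0.35 (SE 0.248) for Pcdh1.

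In the delta-2 group, several of which bind the WAVE actin regulators, Pcdh19 had the smallest edgeR p but did not pass. The log2 fold change of Pcdh8, at 0.62, was close to that of Pcdh19. Pcdh19 (ENSMUSG00000051323, chromosome X, 133582860 to 133688987), mutated in a human epilepsy that mainly affects females, was at 15.3, 33.4, 19.6 and 26.7 CPM in mutant 1 to 4, against 14.2, 17.2, 13.2 and 15.4 CPM in wild type 5 to 8. Mutants 2 to 4 lay above the wild type range and mutant 1 within it. The log2 fold change was 0.66 (edgeR adjusted p = 0.254, SE 0.214), with 0.82 when mutant 1 was left out (edgeR adjusted p = 0.0340) and 0.45 when mutant 2 was (edgeR adjusted p = 0.467). Pcdh11x and Pcdh19 are X-linked, and mutant 1, the mutant with the highest Y-linked sum, was the lowest mutant in both, whereas wild type 6, also above 200 CPM, was the highest wild type in both.

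Pcdh8, an activity-induced protocadherin also called arcadlin, was at 3.14, 4.69, 3.87 and 4.35 CPM in mutant 1 to 4, against 1.64, 4.95, 1.83 and 2.15 CPM in wild type 5 to 8. All mutants were above wild type 5, 7 and 8, and wild type 6 was above all mutants (log2 fold change 0.62, SE 0.332). Pcdh18, which binds the reelin pathway adaptor Dab1, was at 30.1, 16.1, 7.85 and 9.40 CPM in mutant 1 to 4, against 26.0, 29.7, 15.2 and 13.5 CPM in wild type 5 to 8. In both groups the libraries with a Y-linked sum above 200 CPM (mutant 1, wild type 5 and wild type 6) held more Pcdh18 than the rest of their group, and the log2 fold change was -0.42 (SE 0.443). Pcdh17, known from synapses of mouse basal ganglia, was at 31.4, 63.0, 24.1 and 34.9 CPM in mutant 1 to 4, against 17.5, 50.5, 33.6 and 35.7 CPM in wild type 5 to 8, with mutant 2 the highest and overlapping groups (log2 fold change 0.16, SE 0.354). Pcdh10, a protocadherin of axon growth, averaged 25.7 ± 10.6 CPM in mutant and 30.9 ± 10.2 CPM in wild type libraries (SD, n = 4 each), with a log2 fold change of -0.27 (SE 0.324). Pcdh20 was low, at 0.753, 1.46, 0.544 and 0.756 CPM in mutant 1 to 4, against 0.514, 0.935, 0.601 and 0.253 CPM in wild type 5 to 8, and its groups overlapped (log2 fold change 0.61, SE 0.450).

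**Figure D4:**
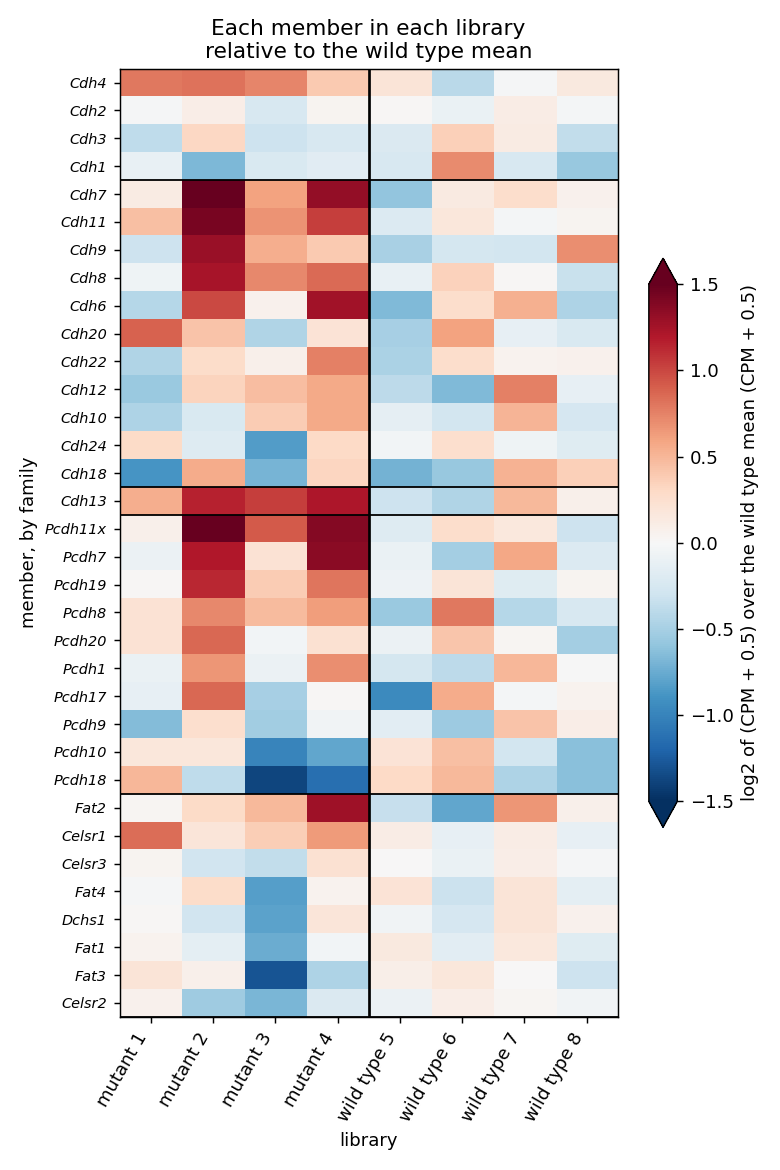
Each member in each library as log2 of (CPM + 0.5) over the wild type mean, mutant libraries left and wild type libraries right, with lines between families. Mutants 2 and 4 are above the wild type mean in most type II cadherins and delta protocadherins, mutant 1 is near it in many, and mutant 3 is below it in most Fat genes.

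The values of mutants 2 and 4 ran together in several of these genes. The summed level of 8 inhibitory neuron markers was also highest in those libraries, at 80.9, 116, 77.8 and 110 CPM in mutant 1 to 4, against 65.9, 92.8, 82.9 and 91.7 CPM in wild type 5 to 8. Of the 7 such markers tested 0 were called by edgeR, and 6 had positive log2 fold changes. The 2 with the smallest p-values differed in sign: Slc6a5, the glycine transporter of inhibitory terminals, had a log2 fold change of 0.78 (edgeR adjusted p = 0.266), and Lhx1, a transcription factor of inhibitory and other neurons, one of -1.12 (edgeR adjusted p = 0.333). Lhx1 was at 36.1, 12.7, 14.5 and 9.78 CPM in mutant 1 to 4, against 31.3, 60.98, 33.9 and 32.9 CPM in wild type 5 to 8, and so was lowest in mutants 2 to 4. These Lhx1 values are part of the sum above. Gad1 had the largest log2 fold change of the 7, at 1.14 (edgeR adjusted p = 0.385). It was at 9.17, 38.0, 19.9 and 33.1 CPM in mutant 1 to 4, against 5.60, 8.99, 11.6 and 19.0 CPM in wild type 5 to 8. The part of these cells in the cadherin values was not tested.

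Within the Celsr family, Celsr1 and Celsr2 had fold changes of opposite sign. Celsr1 (ENSMUSG00000016028, chromosome 15, 85898929 to 86033777), a planar polarity receptor needed for neural tube closure in mouse, was at 146, 91.8, 105 and 127 CPM in mutant 1 to 4, against 87.8, 74.5, 87.7 and 74.6 CPM in wild type 5 to 8. The groups did not overlap, mutant 1 was the highest of all, and mutant 2 lay just above the wild types. For Celsr1 the log2 fold change was 0.53 (SE 0.143, 95% interval 0.22 to 0.85, edgeR adjusted p = 0.161), and it was 0.42 without mutant 1. The two-sided p by exact permutation of libraries was 0.0286, which the lack of overlap fixes. Celsr2 (ENSMUSG00000068740, chromosome 3, 108390851 to 108415552), which acts with Celsr3 in the cilia of mouse ependymal cells, was at 277, 183, 164 and 227 CPM in mutant 1 to 4, against 249, 283, 271 and 255 CPM in wild type 5 to 8. Mutants 2 to 4 were below every wild type library and mutant 1 was second highest of all, with a log2 fold change of -0.31 (edgeR adjusted p = 0.418, SE 0.150). Celsr3 (ENSMUSG00000023473, chromosome 9, 108826320 to 108852969), which guides forebrain and hindbrain axon tracts, was at 315, 251, 235 and 357 CPM in mutant 1 to 4, against 307, 285, 326 and 302 CPM in wild type 5 to 8. Its mutant libraries spread to both sides of the wild type range, and the log2 fold change was -0.08 (SE 0.135, 95% interval -0.37 to 0.22).

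The Fat and Dachsous genes had small negative fold changes apart from Fat2, and none passed the test. Fat2 (ENSMUSG00000055333, chromosome 11, 55250609 to 55336564), a granule cell cadherin found along cerebellar parallel fibres, was at 237, 283, 326 and 564 CPM in mutant 1 to 4, against 183, 136, 367 and 245 CPM in wild type 5 to 8. Mutant 4 was far above the rest and wild type 7 was second highest, so the groups overlapped (log2 fold change 0.60, SE 0.348, edgeR adjusted p = 0.511). Fat1 (ENSMUSG00000070047, chromosome 8, 44935447 to 45052257), which acts on actin at cell contacts, was at 334, 291, 193 and 315 CPM in mutant 1 to 4, against 357, 290, 360 and 285 CPM in wild type 5 to 8. Mutant 3 was the lowest library and the others overlapped (log2 fold change -0.19, SE 0.163). Fat4 and Dchs1 form a receptor and ligand pair across cell borders. Dchs1 was at 141, 114, 80.1 and 159 CPM in mutant 1 to 4, against 135, 118, 160 and 147 CPM in wild type 5 to 8, and Fat4 averaged 122 ± 35.4 CPM in mutant and 129 ± 22.7 CPM in wild type libraries (SD, n = 4 each). The log2 fold change of Dchs1 was -0.18 (SE 0.187) and that of Fat4 was -0.08 (SE 0.212), with overlapping groups in both. Fat3, which shapes amacrine cells in the mouse retina, averaged 50.0 ± 20.4 CPM in mutant and 60.2 ± 8.43 CPM in wild type libraries (SD, n = 4 each), with a log2 fold change of -0.27 (SE 0.280). Mutant 3, the library with the highest total count, was the lowest mutant in 4 of the 5 Fat and Dachsous genes, all but Fat2. It was also the lowest mutant in 2 of the 3 Celsr genes, 13 of the 34 members and 5681 of the 19494 genes tested. Its sample quality weight in limma-voom, 0.411, was the lowest of all libraries. It was also lowest in the summed level of 10 radial glia and astrocyte markers, at 419 CPM with the other mutants at 461 to 896 CPM, against 667 to 945 CPM in wild type libraries, and the part of these cells in the Fat values was not tested.

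Side by side, the families differed in their medians and overlapped in their ranges. The median log2 fold change was -0.17 over the type I cadherins (range -0.60 to 0.70), 0.39 over type II (-0.08 to 1.05), 0.48 over the delta protocadherins (-0.42 to 1.44) and -0.13 over Celsr, Fat and Dachsous (-0.31 to 0.60), beside -0.01 over all genes tested. These are counts and medians over members that share libraries, with no test between families.

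Genes that work with the members were read from the same fit. Of 12 catenins and junction partners 0 passed the edgeR test. At an unadjusted edgeR p below 0.05, 1 was lower, against 5.29% of all genes tested. Ctnna1, an alpha-catenin, had a log2 fold change of -0.53 (edgeR adjusted p = 0.380), Vcl (vinculin) one of -0.32 (edgeR adjusted p = 0.407), and Ctnnb1, beta-catenin, one of -0.07 with 487 CPM in mutant and 511 CPM in wild type libraries. Of 12 planar polarity genes, which act with Celsr proteins, 0 passed. Ankrd6, the mammalian Diego relative, was at 10.4, 22.9, 13.4 and 17.3 CPM in mutant 1 to 4, against 7.35, 7.13, 9.18 and 7.82 CPM in wild type 5 to 8, without overlap (log2 fold change 1.02, SE 0.221, edgeR adjusted p = 0.0884). Dvl2, a Dishevelled protein, had a log2 fold change of -0.23 (edgeR adjusted p = 0.437).

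The partner lists of the Fat genes and of the delta protocadherins gave 0 calls as well. Of 12 listed Fat and Dachsous partners 11 were tested, Dchs2 was not analysed here, and the smallest p-values were those of the Hippo pathway genes Lats2, at -0.38, and Nf2, at -0.26 (edgeR adjusted p = 0.396 and 0.431). Of 9 WAVE complex genes 1 was lower and 2 were higher at an unadjusted edgeR p below 0.05, and 0 passed. At that level 5.29% of all genes tested were lower and 7.22% were higher. The smallest p-values among the WAVE genes were those of Cyfip1, at a log2 fold change of -0.38 (edgeR adjusted p = 0.240), and Wasf1, at 0.34 (edgeR adjusted p = 0.291). Among 6 genes of cadherin cleavage 0 passed, and the sheddase gene Adam17 and the gamma-secretase gene Ncstn had every mutant library below every wild type library, at log2 fold changes of -0.26 and -0.18 (edgeR adjusted p = 0.365 and 0.421). Over all genes tested 2.94% had every mutant library below every wild type library.

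One relative outside the members rose. Of 20 other cadherin superfamily genes 14 were tested, and Cdhr1, a photoreceptor cadherin, was at 5.63, 10.2, 6.06 and 8.51 CPM in mutant 1 to 4, against 2.31, 3.00, 1.77 and 1.82 CPM in wild type 5 to 8. Its log2 fold change was 1.77 (edgeR adjusted p = 0.0110, SE 0.255), and every mutant library was above every wild type library. The other 13 did not pass.

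Promoter sequences were read from the RefSeq table for GRCm38.p6, the build mm10, which listed 24 of the 34 members. The 10 without a listed promoter were Cdh1, Cdh2, Cdh3, Cdh4, Cdh11, Cdh13, Pcdh1, Pcdh11x, Celsr1 and Dchs1. The shares below therefore leave out Cdh4, Cdh11, Cdh13 and Celsr1, the 4 members without overlap between the groups. The 250 bases before each start were searched on both strands for TGATNNAT, the core letters of a Hox and Pbx pair, for TGACAG, the core of Meis, and for the E-box CAGCTG, a class of site that Atoh1 can bind. TGATNNAT was present in 2 of the 24 members (8.33%, Cdh9 and Fat1), against 8.81% of 27025 listed genes. TGACAG was present in 4 (16.7%, Cdh6, Cdh7, Cdh20 and Fat1), against 17.95% of listed genes, and CAGCTG in 2 (8.33%, Cdh9 and Cdh12), against 14.7%. A match is a description of letters and no evidence of binding. Median GC content was 58.4% in the member promoters and 52.4% in all listed promoters. The windows printed next are those that lie wholly before the annotated gene in members with an unadjusted p below 0.05 (Cdh8 and Pcdh19), which edgeR called when mutant 1 was left out, and in type II cadherins with a Meis match (Cdh6 and Cdh20), where capitals mark TGACAG or its reverse complement CTGTCA.
Cdh8 promoter, chr8:99416472-99416721, minus strand: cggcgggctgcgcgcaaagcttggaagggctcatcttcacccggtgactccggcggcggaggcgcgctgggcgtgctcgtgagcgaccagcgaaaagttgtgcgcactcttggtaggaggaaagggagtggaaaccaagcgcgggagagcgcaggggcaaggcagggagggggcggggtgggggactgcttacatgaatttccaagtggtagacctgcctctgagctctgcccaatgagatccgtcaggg
Pcdh19 promoter, chrX:133688994-133689243, minus strand: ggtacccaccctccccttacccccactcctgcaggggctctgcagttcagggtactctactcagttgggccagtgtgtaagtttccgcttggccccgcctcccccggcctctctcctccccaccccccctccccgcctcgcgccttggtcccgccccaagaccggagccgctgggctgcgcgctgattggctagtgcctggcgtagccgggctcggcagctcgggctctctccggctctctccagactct
Cdh6 promoter, chr15:13173676-13173925, minus strand: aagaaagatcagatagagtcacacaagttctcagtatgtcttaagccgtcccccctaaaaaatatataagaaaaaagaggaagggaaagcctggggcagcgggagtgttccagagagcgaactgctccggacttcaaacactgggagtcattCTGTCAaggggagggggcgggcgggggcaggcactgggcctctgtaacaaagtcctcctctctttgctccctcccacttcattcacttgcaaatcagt
Cdh20 promoter, chr1:104768270-104768519, plus strand: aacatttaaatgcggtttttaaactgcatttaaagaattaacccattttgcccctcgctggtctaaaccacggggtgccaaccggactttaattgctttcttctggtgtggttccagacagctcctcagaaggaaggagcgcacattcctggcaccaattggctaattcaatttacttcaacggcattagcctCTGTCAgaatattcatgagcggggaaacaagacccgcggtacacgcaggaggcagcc
The Meis letters begin at position -98 relative to the start in Cdh6 and at position -57 in Cdh20, while Cdh8 and Pcdh19 hold none of the 3 motifs in these windows. GC content was 64.4% for Cdh8, 69.2% for Pcdh19, 51.2% for Cdh6 and 47.6% for Cdh20.

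No source used here says that counting kept the strand, and 7 members share exon bases with another gene in the table: Cdh8, Celsr3, Dchs1, Fat1, Fat4, Pcdh7 and Pcdh19. The largest such neighbour, the antisense gene Gm2366 of Fat1, had 3428 counts over all libraries, against 84362 for Fat1.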

How the data were processed

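RNA was extracted from sorted cochlear nucleus cells of 8 samples, and 2 ng of it went into each library, with random and poly-A primers and 14 PCR cycles, per the labels' protocols. The authors deposited raw read counts per Ensembl gene with a width per gene. The build was mm10 and bcl2fastq 1.8.4 was used, per the submitters' processing notes. Which aligner, counter and annotation were used is not given in the sources used here. Column headings gave the group but not the replicate number of a sample, so columns were assigned to groups only. Of 39017 genes 37607 were matched to a symbol through GENCODE release M21.

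Counts were filtered with filterByExpr, scaled by TMM and tested with the quasi-likelihood F test of edgeR 4.0.16 (robust) in R 4.3.3, on all genes, with Benjamini-Hochberg adjustment and a threshold of 0.05. The biological coefficient of variation was 23.2%. SE is the size of the fitted log2 fold change over the square root of F. Permutation tests enumerated the 70 splits of 8 libraries. Groups without overlap always give the smallest permutation p, 0.0286, so that value repeats the lack of overlap. The permutation p was 0.0857 for each of Cdh7, Cdh8, Pcdh11x and Pcdh19, and 0.143 for Pcdh7. Intervals for single libraries are exact Clopper-Pearson at 95% and cover counting error only, since PCR copies are not independent molecules. DESeq2 1.42.0, limma 3.58.1, other scalings and filters, a Y-linked covariate and left-out libraries were alternatives.

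The members and lists were chosen with earlier results of these data known. All members are named. Values in every library are given for up to 3 members with the smallest p and up to 2 with the highest level per kb in each subfamily, and of partner lists genes past the threshold or else the 2 with the smallest p are named. Cell type markers are given as summed levels, and where single markers are named they are chosen in the same way. Ctnnb1, Atoh1, Csf1r, P2ry12 and Gad1 are named outside that rule.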

Additional observations from a re-analysis of the deposited data

Results flagged for a closer look

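In 4 of the 68 sets of 4 libraries examined (34 members in each group), 1 library stood apart from the other 3 of its group, where chance alone flags about 1 in 20 sets. Cdh3 was at 0.630 CPM in mutant 2, with the other mutants at 0.196 to 0.270 CPM. Cdh9 was at 1.16 CPM in wild type 8, with the other wild types at 0.231 to 0.350 CPM. Cdh10 was at 44.2 CPM in wild type 7, with the other wild types at 25.5 to 28.2 CPM. Pcdh8 was at 4.95 CPM in wild type 6, with the other wild types at 1.64 to 2.15 CPM.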

How the results depend on the processing

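Each member was refitted under up to 19 alternatives, and 25 of the 34 kept the sign of their log2 fold change in all of them. The number of members called was 0 in edgeR, 2 with no filter on low counts, 6 with DESeq2, 2 with quality weights in limma-voom, 3 with mutant 1 and wild types 5 and 6 all left out (chosen after seeing the data), and 0 to 7 with single libraries left out. The number of all genes called was 70 of 19494 tested in edgeR. It was 214 of 34724, 497 of 19494, 233 of 19494 and 171 of 20153 under these 4 alternatives in the same order. With single libraries left out it ran from 26 of 19970 to 544 of 20124. The cause was not tested. With quality weights 14 members had an unadjusted p below 0.05, in place of 9. The number of members with a positive log2 fold change was 20 in edgeR, 25 with quality weights and 25 without mutant 3. Signs turned with quality weights for Cdh2 (0.017), Cdh3 (0.0031), Cdh18 (0.17), Cdh24 (0.041) and Fat4 (0.024), and without the 3 libraries together for Cdh1 (0.24) and Cdh3 (0.092). With single libraries left out the log2 fold change ran from -0.92 to 0.22 for Cdh1, -0.068 to 0.038 for Cdh2, -0.76 to 0.0034 for Cdh3, -0.051 to 0.35 for Cdh10, -0.43 to 0.22 for Cdh18, -0.19 to 0.16 for Cdh24, -0.18 to 0.41 for Pcdh17, -0.19 to 0.012 for Celsr3 and -0.21 to 0.11 for Fat4. Without division by length the wild type shares were 17.3% for type I, 5.60% for type II, 8.16% for delta protocadherins and 67.6% for Celsr, Fat and Dachsous. Of the 34 members, 30 reached 1 CPM in 4 libraries. The lowest members, Cdh1, Cdh3, Cdh9 and Pcdh20, averaged no more than 1.04 CPM in either group, and in each of them the exact counting intervals of some libraries of the same group did not overlap. No paired analysis was possible because the columns carry no replicate number and each sample has a mother of its own, so the planned replicate block was not run.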

Other observations

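The members are long genes, with a median span of 126.7 kb on the genome, against 17.6 kb over all genes tested. The 21 members longer than 100 kb had a median log2 fold change of 0.53, with 15 of them positive, and the 13 shorter members had one of -0.08. Over all 2393 tested genes longer than 100 kb the median was -0.01, with 48.8% positive. Whether span or family goes with the fold change was not tested.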
